A study of Mus musculus with 12 samples.

Results

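The aminoacyl-tRNA synthetases were followed in cultured mouse mammospheres through the transition from an undifferentiated to a differentiated state. The members are all probe sets paired with a single gene whose symbol is a 1-letter amino acid code followed by ars, with or without a closing 1, 2, a or b, including Eprs. The rule found 35 of the 18194 genes that have a probe set of their own, read by 73 of 45265 probe sets on the Affymetrix chips MOE430A and MOE430B, 48 on the first and 25 on the second. A probe set is a group of short oligonucleotides that report on 1 transcript. The aspartate enzymes were not analysed here.

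Each state was represented by 3 RNA samples, numbered 1, 2 and 4, and every sample was hybridised to both chips. Undifferentiated samples came from mammospheres at passage 3, floating clusters of mammary gland cells kept in DMEM and F12 with B-27, heparin, epidermal growth factor and basic fibroblast growth factor. The submitters gave their purity as 90%, with 10% myoepithelial cells. Differentiated samples were cells of such mammospheres after 6 days of induced differentiation, plated on a collagen coat in 5% fetal bovine serum and high glucose DMEM, described as 50% myoepithelial and 50% luminal. The states therefore differed in medium, growth factors, serum and substrate together. Both were kept at 5% CO2, and no mouse strain, age or genotype was given. Nothing in the labels ties the 3 numbers to separate cultures or animals, so p-values measure the spread between these samples, which may be technical.

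Synthetases attach each amino acid to its transfer RNA, which makes the charged tRNA that the ribosome reads. Mammalian cells hold a cytosolic set and a separate mitochondrial set, the latter also encoded in the nucleus, and a few genes serve both compartments. The enzymes fall into class I and class II by the fold of their catalytic domain, and several cytosolic members sit in a multisynthetase complex held by scaffold proteins. Many cytosolic synthetase genes are known targets of ATF4, the transcription factor of the amino acid response. In the mammary gland, the enzymes supply the protein synthesis of growth and of milk production.

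Values are MAS5 signals, scaled by the authors so that every array had the same trimmed mean, 1500.5 on MOE430A and 1500.2 on MOE430B. The highest signal of the trpn probe sets, Affymetrix controls for a bacterial gene, was taken as the background of an array and lay between 515.5 and 829.8 on MOE430A and between 1674 and 2995 on MOE430B. Differentiated samples 1 and 4 stood apart. Their hybridisation controls on MOE430A were 2.88 and 2.85 times the undifferentiated mean, against 1.44 in sample 2, and their 18S rRNA controls averaged 16109 and 11453, against 347 to 1293 on the other 4 arrays. The undifferentiated arrays were all run on fluidics station 2 and the differentiated arrays on station 1, so station and state cannot be told apart. Correlations of log2 signal on MOE430A were 0.968 to 0.972 among undifferentiated arrays, 0.942 to 0.955 among differentiated arrays and 0.834 to 0.864 between states.

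Cell type markers did not match the labels in full. Of 10 myoepithelial markers on the chips, 1 was above background in all undifferentiated and 3 in all differentiated samples, while the basal keratins Krt5 and Krt14 were below it in every sample. Of 10 luminal markers the counts were 1 and 2. All 7 fibroblast markers were above background in all 6 samples, and their summed signal was 239075 to 243512 in undifferentiated and 352244 to 487891 in differentiated samples. Of these 7, 4 rose, Col1a1 and Col3a1 among them, and Lum and Fap fell (limma adjusted p = 0.00039 and 0.00571). Myoepithelial markers summed to 7686 to 8070 and 63790 to 84114. That sum rested largely on the contractile genes Acta2, with means of 5580 and 50043, and Tagln, with 400 and 17974. Of 8 tested myoepithelial markers, 4 rose and the other 4 were below background in all 6 samples. Of 5 tested luminal markers 0 passed in limma at an adjusted p under 0.05. Of 5 macrophage and leukocyte markers 2 rose, and of 5 endothelial markers 1 rose and 2 fell. Over all genes tested, 9.23% rose and 9.27% fell, with 14.2% and 13.9% among genes read on MOE430A. The part of these cell types in the results on synthetases was not tested. In RNA from whole cultures, fewer cells of a type and less RNA per cell cannot be told apart.

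Of the 35 synthetase genes, Eprs and Gars rose and Pars2 fell in the differentiated samples, and the other 32 did not pass the test. These directions hold on the authors' scaling, where the median of all tested probe sets on MOE430A was 0.03. Scaling on the hybridisation controls put that median at -1.06 and gave 0 genes higher and 22 lower. Scaling on the poly-A controls put it at 0.05 and gave 0 higher and 1 lower. With differentiated samples 1 and 4 left out, 1 differentiated sample remained. The log2 difference was then 0.73 for Eprs and 0.43 for Gars. A gene is read from its brightest tested probe set, on MOE430A where it has one there. The test was limma on log2 signal, and a gene passed at a Benjamini-Hochberg adjusted p under 0.05 over all probe sets of the chip. On MOE430A, 3 of 26 synthetase genes passed, against 28.1% of all 9484 genes read on that chip (14.2% higher and 13.9% lower). None of the 9 genes read on MOE430B passed in limma, where 2.00% of 5493 genes did (0.692% higher and 1.31% lower), and 1 member probe set of that chip had an unadjusted p under 0.05. The median log2 difference, differentiated minus undifferentiated, was 0.06 over the 35 genes and 0.04 over all 14977 genes tested, and the median absolute difference was 0.23 and 0.36. A difference within 1.5-fold was fitted for 32 of 35 synthetase genes (91.4%) and for 71.0% of all genes. The precision differed by chip. The 95% interval lay inside 2-fold for 23 of 26 genes on MOE430A and 5 of 9 on MOE430B, and inside 1.5-fold for 13 and 0.

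Counted by probe set, 64 of the 73 were bright enough to be tested. On MOE430A, 4 rose and 3 fell of 41 tested (17.1%), against 28.5% of all probe sets of that chip (14.1% higher and 14.4% lower). On MOE430B 0 of 23 passed in limma, against 1.83% (0.714% higher and 1.12% lower). The states did not overlap for 11 probe sets higher and 5 lower in the differentiated samples on MOE430A (39.0%, against 47.7% of all), and for 2 of 23 on MOE430B (8.70%, against 22.8%). The median coefficient of variation of the members on MOE430A was 9.49% among undifferentiated and 12.6% among differentiated samples, against 12.0% and 15.6% over all tested probe sets. On MOE430B it was 21.9% and 33.7%, against 25.1% and 30.5%. Of 18 genes with more than 1 tested probe set, 12 had the same sign on all of them, and no gene had probe sets passing in opposite directions.

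**Figure D1:**
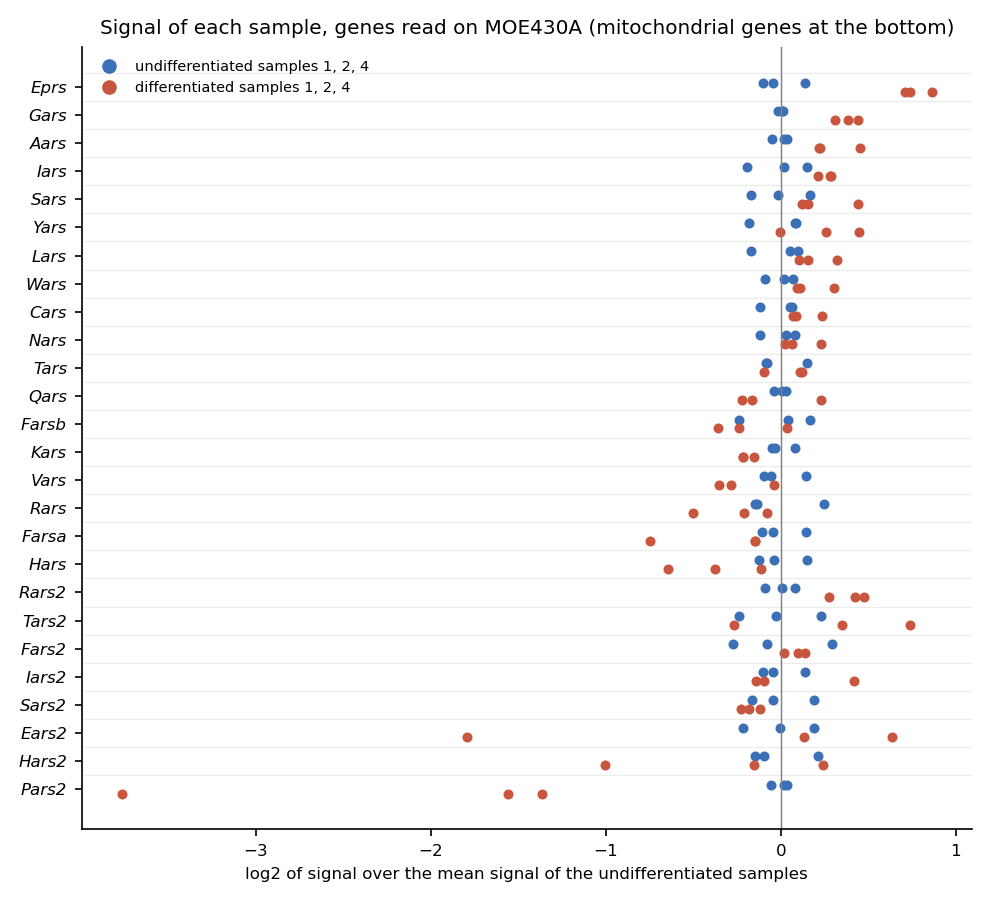
Signal of each sample for the 26 synthetase genes read on MOE430A, as log2 of the signal over the mean of the 3 undifferentiated samples, with cytosolic genes at the top and mitochondrial genes at the bottom. Each gene has 3 undifferentiated points around 0 and 3 differentiated points. All 3 differentiated points of Eprs lie to the right of its undifferentiated points and all 3 of Pars2 to the left, where they are below background. The values are on the authors' scaling. On the hybridisation controls Eprs is fitted at -0.41 (limma adjusted p = 0.332), around a chip median of -1.06.

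Eprs, the fused enzyme that charges both glutamate and proline tRNAs and belongs to the multisynthetase complex, showed the larger of the 2 rises. Its brightest probe set, 1426713_s_at, read 3154, 2770 and 2663 in undifferentiated samples 1, 2 and 4 and 4673, 4777 and 5201 in differentiated samples 1, 2 and 4. Every differentiated sample was above every undifferentiated one, by 1.69-fold in the fit (log2 difference 0.76 ± 0.13, SE, n = 3 and 3, limma adjusted p = 0.00551). Probe set 1452157_at read 2595, 2592 and 2164 against 4453, 5859 and 4612 (log2 0.99 ± 0.16, adjusted p = 0.0044). The dimmer 1452158_at read 597, 831 and 787 against 1190, 2201 and 1314 (0.98 ± 0.25, adjusted p = 0.0258). These 3 probe sets moved the same way without overlap. The Eprs probe set of MOE430B, 1430370_at, was below background in all 6 samples and did not pass (0.32 ± 0.58, adjusted p = 0.839). With differentiated samples 1 and 4 left out, which leaves 1 differentiated sample, the log2 difference of 1426713_s_at was 0.73. On the poly-A controls it was 0.77 with adjusted p = 0.056. On the hybridisation controls, where the chip's median was -1.06, it was -0.41 (adjusted p = 0.332), which is 0.66 above that median.

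Gars, the single gene for both the cytosolic and the mitochondrial glycine enzyme, had the other rise. Its 1 probe set, 1423784_at, read 6297, 6276 and 6164 in undifferentiated and 7755, 8465 and 8146 in differentiated samples. The groups did not overlap, and the standard deviation of the undifferentiated values was 71.4. The difference was 1.30-fold (log2 0.37 ± 0.11, SE, n = 3 and 3, limma adjusted p = 0.0455). This call was close to the threshold, and leaving out any 1 of the 6 samples gave an adjusted p between 0.058 and 0.124. Without differentiated samples 1 and 4 together, which leaves 1 differentiated sample, the log2 difference was 0.43. On the poly-A controls it was 0.39 (adjusted p = 0.365). On the hybridisation controls, where the chip's median was -1.06, it was -0.80 (adjusted p = 0.0596).

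**Figure D2:**
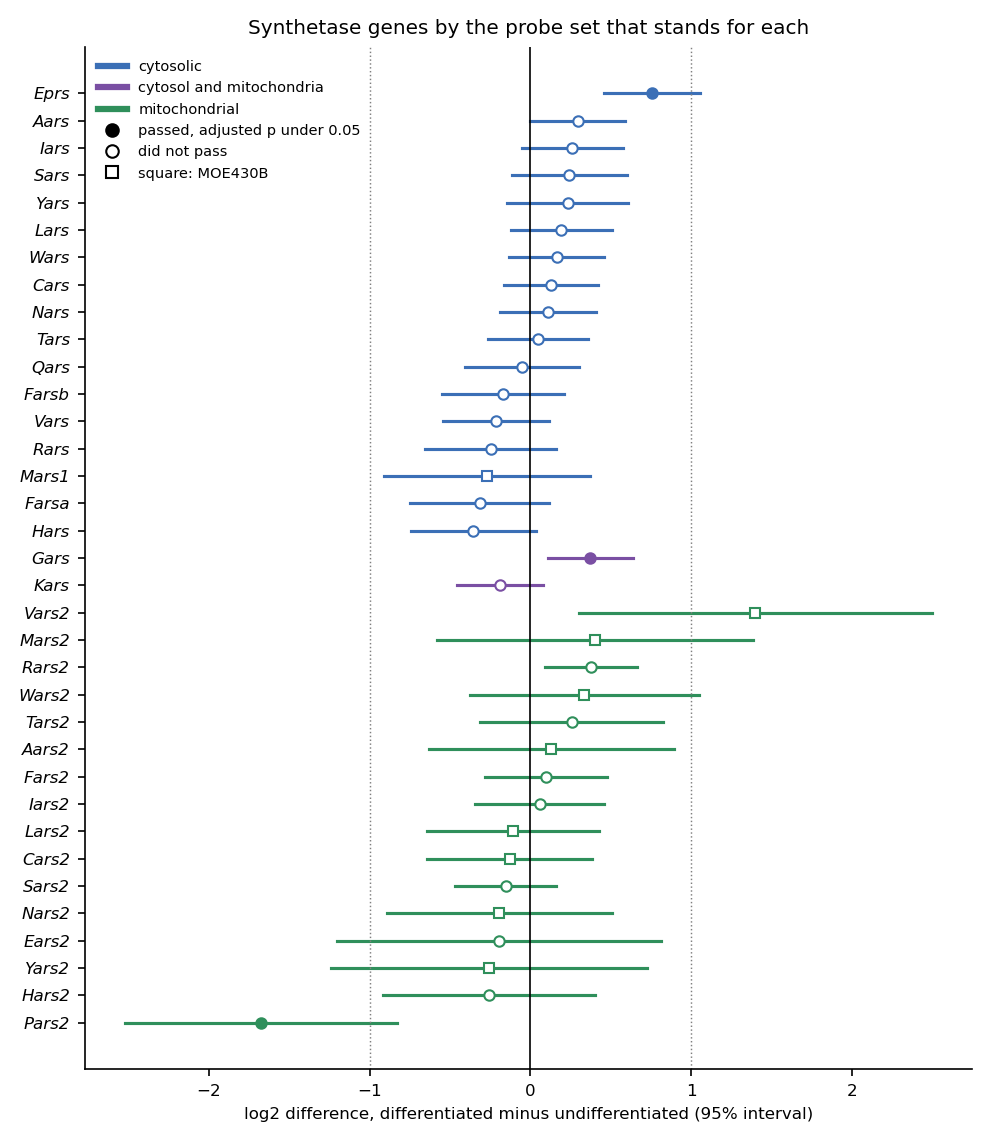
Fitted log2 difference, differentiated minus undifferentiated, for each of the 35 synthetase genes with its 95% interval. Circles are genes read on MOE430A and squares genes read on MOE430B, filled where the gene passed at an adjusted p under 0.05. Dotted lines mark 2-fold. Intervals reach outside 2-fold for 3 of 26 genes on MOE430A and 4 of 9 on MOE430B. On the hybridisation controls 22 genes are lower and none higher, around a median of -1.06 over all tested probe sets of MOE430A.

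The cytosolic set, counted with Gars and Kars, held 19 genes, of which 18 were above background on all 6 arrays. Apart from Eprs and Gars none passed, and the median log2 difference of the 19 was 0.11, between -0.35 for Hars and 0.76 for Eprs. The fitted difference of 18 of the 19 was within 1.5-fold. Aars, the alanine enzyme, came nearest among the brightest probe sets. Its 1451083_s_at read 9925, 10522 and 10407 in undifferentiated and 14078, 12002 and 11948 in differentiated samples, without overlap (0.30 ± 0.12, adjusted p = 0.119), while its other probe set overlapped (0.13 ± 0.16, adjusted p = 0.549). Iars, the isoleucine enzyme, had both probe sets without overlap. Its 1452154_at read 3582, 2821 and 3272 against 3913, 3932 and 3740 (0.26 ± 0.13, adjusted p = 0.181), and 1426705_s_at read 2489, 2745 and 2347 against 3586, 3414 and 3074 (0.40 ± 0.13, adjusted p = 0.0557). Neither met the threshold.

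Among the other class I enzymes of the cytosol, the cysteine enzyme Cars stood at 0.13 ± 0.12 (adjusted p = 0.458), the leucine enzyme Lars at 0.19 ± 0.13 (adjusted p = 0.312) and the tyrosine enzyme Yars at 0.23 ± 0.16 (adjusted p = 0.309). For Cars and Lars every differentiated sample was above every undifferentiated one, by small margins. Vars, which charges valine, read 2276, 2678 and 2332 against 2368, 1998 and 1898 (-0.21 ± 0.14, adjusted p = 0.287). The glutamine enzyme Qars had 3 tested probe sets with differences of -0.05, -0.27 and -0.07, and none passed. Rars, for arginine, stood at -0.25 ± 0.17 and Mars1, the methionine enzyme read on MOE430B, at -0.27 ± 0.27. Their groups overlapped.

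Wars, the tryptophan enzyme, whose human counterpart is induced by interferon gamma, had 5 tested probe sets. Their differences lay between -0.17 and 0.22 and none passed. Probe set 1415694_at is present on both chips, so the same oligonucleotides were read on each from the same RNA samples. It gave 0.03 ± 0.11 on MOE430A and -0.00 ± 0.25 on MOE430B. Both readings put the difference near 0, with a wider error on MOE430B.

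The 9 class II genes of the cytosolic set had a median log2 difference of 0.05. The serine enzyme Sars was at 0.24 ± 0.15 and overlapped, with 9998, 11119 and 12665 against 15288, 12237 and 12519. Its other probe set, 1452000_s_at, had the opposite sign (-0.10 ± 0.18, adjusted p = 0.707). The asparagine enzyme Nars was at 0.11 ± 0.13 and the threonine enzyme Tars at 0.05 ± 0.13. Kars, which serves both compartments with lysine tRNA, read 2673, 2902 and 2641 against 2359, 2355 and 2459, lower in every differentiated sample yet short of the threshold (-0.19 ± 0.11, adjusted p = 0.251). Hars, for histidine, gave -0.35 ± 0.16 and -0.36 ± 0.24 on its 2 probe sets (adjusted p = 0.149 and 0.29). Of the class II genes in the cytosolic set, 1 passed of 9, and of the class I genes 0 of 9, with Eprs, which has a domain of each class, counted in neither.

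Phenylalanyl-tRNA synthetase is built of an alpha subunit, Farsa, and a beta subunit, Farsb. The brightest probe set of Farsb, 1423709_s_at, read 1102, 1457 and 1338 in undifferentiated and 1100, 1013 and 1329 in differentiated samples, and did not pass (-0.17 ± 0.16, adjusted p = 0.461). A dimmer one, 1435103_x_at, fell from 1107, 1145 and 1262 to 752, 784 and 844 (-0.52 ± 0.12, limma adjusted p = 0.0191). The value of 752 was below its array's background. The dimmest tested, 1423708_a_at, read 731, 1017 and 780 against 399, 619 and 511, with the latter 3 under background, a fall of at least 1.15-fold (adjusted p = 0.0413). The probe sets of this gene therefore disagree on the call while sharing a sign, and the suffixes _x, _s and _a mark oligonucleotides that may match more than 1 transcript. Farsa on MOE430A read 946, 988 and 1128 against 922, 922 and 608, lower in every differentiated sample without passing (-0.31 ± 0.18, adjusted p = 0.235). The value of 608 was below its array's background. On MOE430B its 1446301_at overlapped (-0.18 ± 0.24, adjusted p = 0.776), and 1445003_at and 1440063_at were below background in every sample.

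**Figure D3:**
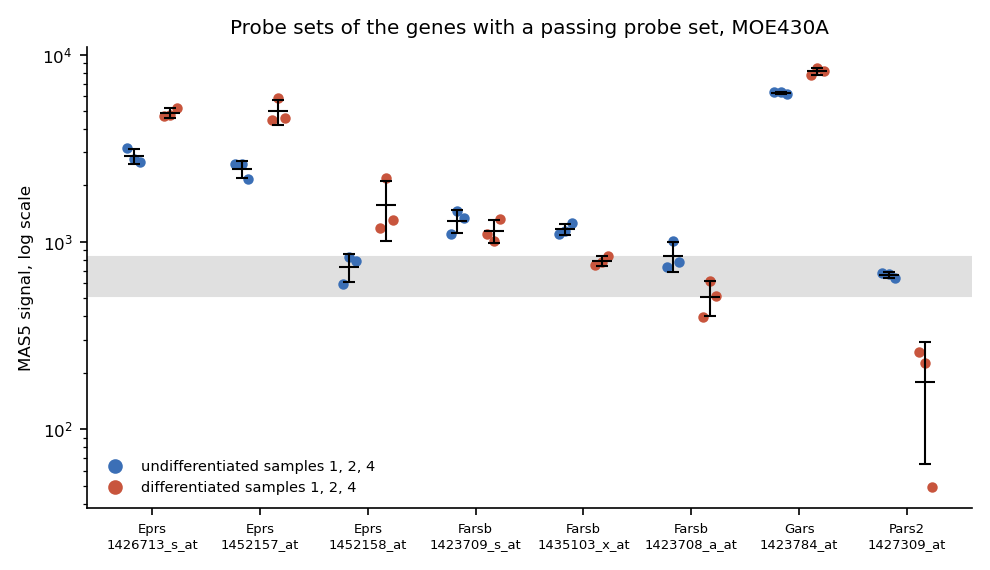
MAS5 signal on a log axis for the 8 tested MOE430A probe sets of the genes with a passing probe set, with 3 points per state, the mean as a bar and 1 SD as whiskers. The grey band spans the background of the 6 arrays, 515.5 to 829.8. All 3 Eprs probe sets are higher in the differentiated samples on the authors' scaling, the Farsb probe sets differ among themselves, and Pars2 lies within the band in undifferentiated samples and below it in differentiated samples. On the hybridisation controls the brightest Eprs probe set is fitted at -0.41 (limma adjusted p = 0.332), which is 0.66 above that scaling's chip median.

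Of the 7 enzymes of the multisynthetase complex measured here, Eprs rose and the others, Iars, Lars, Mars1, Qars, Rars and Kars, did not pass. Their median log2 difference was -0.05. The 12 genes of the cytosolic set outside the complex had a median of 0.12, with 1 of 12 passing. The scaffold genes of the complex were Aimp1, Aimp2 and Eef1e1. Aimp1 and Aimp2 stood at -0.02 (adjusted p = 0.95) and 0.09 (adjusted p = 0.637). Eef1e1 fell, reading 1970, 2424 and 2299 in undifferentiated and 1131, 1662 and 1321 in differentiated samples without overlap (-0.68 ± 0.17, limma adjusted p = 0.0251).

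The mitochondrial set held 16 genes, of which 3 were above background on all 6 arrays and 4 below it on all 6, so the depth of signal was far less than for the cytosolic set. The median log2 difference was -0.02 and 1 gene passed. Pars2, the mitochondrial proline enzyme, fell. Its probe set 1427309_at read 683, 676 and 641 in undifferentiated samples, each above its array's background, and 258, 226 and 49.0 in differentiated samples, each below. The means were 666 ± 22.4 and 178 ± 113 (SD, n = 3 each), and the limma adjusted p was 0.0143. The undifferentiated mean did not exceed the background of the differentiated arrays, so no fold is given. The fitted log2 value of -1.68 ± 0.36 includes signal below background. The fall passed in all 17 alternatives that gave it a value, with adjusted p up to 0.0482. The gene's cytosolic counterpart for proline is Eprs, which moved the other way. The difference between these 2 genes was not tested.

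Rars2, the mitochondrial arginine enzyme, read 1508, 1341 and 1436 against 1988, 1920 and 1730. The groups did not overlap, and the test fell just short (0.38 ± 0.12, adjusted p = 0.0573). The cytosolic Rars was fitted at -0.25 with overlapping groups. Vars2, the mitochondrial valine enzyme, had the largest fitted difference of the genes that did not pass, on MOE430B. Its 1434349_at read 1255, 357 and 1167 in undifferentiated samples, all below background, and 2115, 2184 and 2570 in differentiated samples, of which 2 were also below (1.40 ± 0.46, adjusted p = 0.227), while its other probe set gave 0.00 ± 0.55. Both fitted values of Vars2 include signal below background, so no fold is given and the rank rests on such signal. Lars2 for leucine was above background on all 6 arrays of MOE430B at 5759, 4897 and 4749 against 4595, 4829 and 4833 (-0.11 ± 0.22, adjusted p = 0.869).

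Fars2 for phenylalanine stood at 0.10 ± 0.16, and its 3 differentiated values, 1130, 1162 and 1066, lay within the undifferentiated range. Iars2 for isoleucine was at 0.06 ± 0.17, with 2 of 3 values of each state below background. Tars2 for threonine, on MOE430A, and Yars2 for tyrosine, on MOE430B, were below background in all 3 differentiated and 2 of 3 undifferentiated samples, and no difference is given for them. Sars2 for serine was at -0.15 ± 0.13, with 2 of 3 differentiated values below background. Hars2 for histidine was at -0.26 ± 0.28, with 1 of 3 differentiated values below it. Cars2 for cysteine, on MOE430B, read 3172, 3200 and 3071 against 2773, 2869 and 2978 (-0.13 ± 0.22, adjusted p = 0.825). It was the 1 probe set of that chip lower in every differentiated sample, and its value of 2978 was below its array's background. Wars2 for tryptophan was at 0.33 ± 0.30, with 1 of 3 undifferentiated values below background. Ears2, the mitochondrial glutamate enzyme, read 383, 289 and 334 against 368, 96.9 and 522, all below background, and its fitted difference of -0.20 rested on samples that disagree. Without differentiated samples 1 and 4, the single low sample left gave -1.25. Aars2, Mars2 and Nars2 were also below background in every sample on MOE430B, and no difference could be read from them at this signal.

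The other genes of tRNA charging were counted from lists chosen for their function. Over all genes tested, 9.23% rose and 9.27% fell. These shares were 14.2% and 13.9% for genes read on MOE430A and 0.692% and 1.31% for genes read on MOE430B. Of 7 scaffold and synthetase-like genes tested, Eef1e1 fell and Dtd1, a deacylase that removes D-amino acids from tRNA, rose. Dtd1 read 393, 399 and 495, all below background, against 666, 918 and 926, of which the first was below it too. It passed with no fold given (limma adjusted p = 0.0108). Of 4 genes of mitochondrial transamidation and formylation, 1 fell, Qrsl1, a subunit of the mitochondrial glutamyl-tRNA amidotransferase, which read 515, 337 and 528 against 142, 320 and 197 (adjusted p = 0.0405). All but the undifferentiated value of sample 4 were below background. When differentiated samples 1 and 4 were left out, which leaves 1 differentiated sample, the median log2 differences of these lists were -0.02 and 0.07. With all samples they were 0.09 and 0.04.

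Of 9 genes that deliver charged tRNA to the ribosome, 2 rose and 0 fell in limma. Eef1a1, the elongation factor that carries aminoacyl-tRNA, read 89751, 91708 and 92428 against 187772, 137071 and 178520 (0.86 ± 0.15, adjusted p = 0.00682). The differentiated samples that stood apart, 1 and 4, had the higher of these values. Eef1b2, its nucleotide exchange factor, rose by less (0.43 ± 0.13, adjusted p = 0.0443). Of 37 genes of tRNA processing and modification, 4 rose and 1 fell, with a median of -0.02. Xpot, the exportin of tRNA, read 1893, 1904 and 1819 against 2697, 3224 and 3038 (0.65 ± 0.12, adjusted p = 0.00917). Elac1, of the tRNA 3′ processing ribonucleases, read 274, 375 and 331, all below background, against 499, 511 and 674. The first 2 of the differentiated values were below background too. Elac1 passed with no fold given (adjusted p = 0.0242). Ssb, the La protein that binds the ends of new tRNA precursors, was lower at 1705, 1897 and 1936 than at 2681, 2635 and 2507 (-0.48 ± 0.12, adjusted p = 0.0232). With differentiated samples 1 and 4 left out, which leaves 1 differentiated sample, the median was -0.01 for delivery and -0.05 for processing. The delivery median with all samples was 0.02. On the hybridisation controls delivery gave 0 higher and 6 lower and processing 0 and 17, and on the poly-A controls 1 and 0 genes were higher and none lower.

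**Figure D4:**
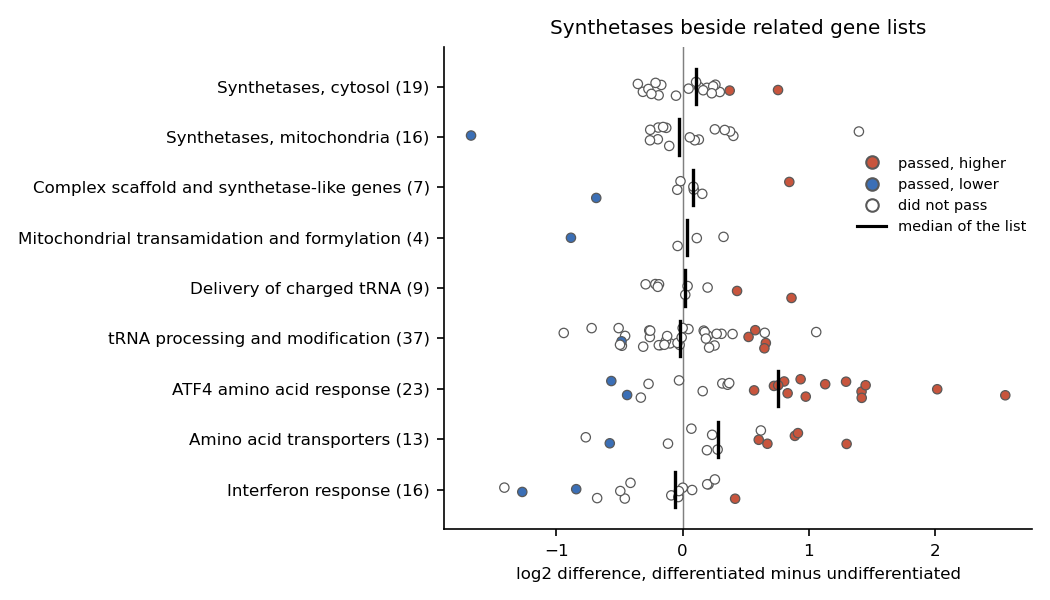
Fitted log2 difference, differentiated minus undifferentiated, of each gene in the synthetase sets and in the lists around them, with the number of genes tested in parentheses and the median as a black bar. Filled points passed at an adjusted p under 0.05. The synthetase medians lie near 0 and that of the ATF4 list lies at 0.76, all on the authors' scaling. On the hybridisation controls the median of the ATF4 list is -0.38, around a median of -1.06 over all tested probe sets of MOE430A. On the poly-A controls it is 0.78.

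Of 23 other genes of the ATF4 amino acid response that were tested, 14 rose and 2 fell, with a median log2 difference of 0.76. Trib3, a pseudokinase induced in this response, read 678, 679 and 642 in undifferentiated and 4263, 5022 and 3697 in differentiated samples (2.56 ± 0.15, limma adjusted p = 6.17e-05). Fgf21, a secreted hormone, read 209, 89.0 and 90.8, all below background, against 1148, 560 and 590, and passed (adjusted p = 0.00459). Of the differentiated values only that of sample 1, which stood apart, was above background, so no fold is given. Gpt2, the mitochondrial alanine aminotransferase, fell at least 1.32-fold (adjusted p = 0.0306), and Shmt2, the mitochondrial serine hydroxymethyltransferase, fell by 0.44 ± 0.12 (adjusted p = 0.0352). Atf4 itself (1.13, adjusted p = 0.000721) and Asns, the asparagine synthetase (0.94, adjusted p = 0.00135), also rose, and both were singled out after their values were seen. The median of the ATF4 list was 0.89 without differentiated samples 1 and 4, which leaves 1 differentiated sample. On the hybridisation controls 2 genes of the list were higher and 7 lower, around a chip median of -1.06. On the poly-A controls 11 were higher and 0 lower. The difference between this list and the synthetases was not tested.

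Amino acid transporters gave 5 rises and 1 fall among 13 tested, with a median of 0.28. Slc1a4, a carrier of alanine, serine and cysteine, read 843, 757 and 1076 against 2315, 2596 and 1988 (1.30 ± 0.17, adjusted p = 0.00207). Slc38a2, a sodium-coupled neutral amino acid carrier, read 5209, 4574 and 5361 against 9071, 8770 and 10998 (0.92 ± 0.14, adjusted p = 0.00425). Slc7a7, of the cationic amino acid exchangers, was lower (-0.58 ± 0.14, adjusted p = 0.0201). Without differentiated samples 1 and 4, which leaves 1 differentiated sample, the transporter median was 0.45. The transporter counts were 0 higher and 5 lower on the hybridisation controls, and 3 higher and 0 lower on the poly-A controls. Interferon response genes, listed because human WARS1 belongs to them, gave 1 rise and 2 falls of 16. The falls were the immunoproteasome subunits Psmb8 (-1.27 ± 0.15, adjusted p = 0.00142) and Psmb9, whose differentiated values were below background, and the rise was Stat2 (0.42 ± 0.12, adjusted p = 0.0407). The median of that list was -0.06 with all samples and -0.17 without differentiated samples 1 and 4. It gave 0 rises and 15 falls on the hybridisation controls, and 0 rises and 3 falls on the poly-A controls.

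Promoter windows from RefSeq, reaching from 250 bases before to 50 after the annotated start on build GRCm38.p6, were matched for 26 of the 35 synthetase genes. Cars, Hars, Hars2, Lars, Nars, Pars2, Rars, Vars and Wars had no matched window and were not searched. They were searched on both strands for TGATGNAA, the core of the amino acid response element bound by ATF4 with its partners, and for the E-box CACGTG. The 2 motifs share no overlapping match in the windows shown. The first was present in 5 of 26 synthetase genes (19.2%), in 7 of 22 matched genes of the ATF4 list (31.8%) and in 4.51% of all 27025 genes. CACGTG was present in 5 of 26 (19.2%) and in 8.09% of all. The stretches below run 5′ to 3′ on the gene's strand from 130 bases before the start to 24 after it, with both motifs in capitals. They are shown because they hold every TGATGNAA match of the synthetase genes searched, beside Eprs, which rose, and Asns and Trib3 from the ATF4 list.
Gars: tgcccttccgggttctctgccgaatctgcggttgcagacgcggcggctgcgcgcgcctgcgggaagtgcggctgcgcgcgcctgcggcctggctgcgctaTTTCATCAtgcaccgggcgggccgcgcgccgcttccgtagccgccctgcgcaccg
Aars: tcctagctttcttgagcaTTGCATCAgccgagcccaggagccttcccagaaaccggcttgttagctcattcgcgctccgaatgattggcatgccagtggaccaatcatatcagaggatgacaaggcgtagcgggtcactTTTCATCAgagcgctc
Iars: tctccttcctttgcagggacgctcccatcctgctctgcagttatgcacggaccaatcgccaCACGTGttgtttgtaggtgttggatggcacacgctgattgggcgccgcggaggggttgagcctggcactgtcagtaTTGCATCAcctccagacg
Tars: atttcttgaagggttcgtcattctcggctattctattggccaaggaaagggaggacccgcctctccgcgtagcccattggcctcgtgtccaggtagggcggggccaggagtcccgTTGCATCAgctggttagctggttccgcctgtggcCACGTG
Yars: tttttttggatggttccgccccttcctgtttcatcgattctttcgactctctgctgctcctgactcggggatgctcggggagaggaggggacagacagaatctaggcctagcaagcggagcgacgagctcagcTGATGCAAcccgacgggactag
Eprs: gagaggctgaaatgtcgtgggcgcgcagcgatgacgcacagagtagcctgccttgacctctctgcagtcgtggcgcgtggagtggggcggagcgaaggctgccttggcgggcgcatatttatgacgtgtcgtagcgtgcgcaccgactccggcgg
Asns: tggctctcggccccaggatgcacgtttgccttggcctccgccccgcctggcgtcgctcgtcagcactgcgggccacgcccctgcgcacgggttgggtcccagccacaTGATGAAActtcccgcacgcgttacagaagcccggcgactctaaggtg
Trib3: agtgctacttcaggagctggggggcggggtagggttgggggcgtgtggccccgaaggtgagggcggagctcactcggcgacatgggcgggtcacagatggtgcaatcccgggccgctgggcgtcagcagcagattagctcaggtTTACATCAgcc

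The stretches lie at chr6:55037871-55038025 (plus strand) for Gars, chr8:111033712-111033866 (plus strand) for Aars, chr13:49682000-49682154 (plus strand) for Iars, chr15:11399634-11399788 (minus strand) for Tars, chr4:129189773-129189927 (plus strand) for Yars, chr1:185362914-185363068 (plus strand) for Eprs, chr6:7693185-7693339 (minus strand) for Asns and chr2:152344036-152344190 (minus strand) for Trib3. Counting the start base as 0, the match begins at -30 in Gars, -15 in Tars, 3 in Yars, 7 in Iars and -112 and 9 in Aars, and at -23 in Asns and 14 in Trib3. The E-box begins at -69 in Iars and 19 in Tars. Gars, Aars, Iars, Tars and Trib3 carry the core on the opposite strand, while Yars and Asns carry it in the printed direction. The fitted log2 differences of the synthetase genes with a match were 0.37 for Gars, 0.30 for Aars, 0.26 for Iars, 0.23 for Yars and 0.05 for Tars. Gars alone passed. Scaling on the hybridisation controls put all 5 below 0, where the median of all tested probe sets on MOE430A was -1.06. Relative to that median, Gars stood at 0.26, Aars at 0.18, Iars at 0.16, Yars at 0.14 and Tars at -0.04. Of all 35 synthetase genes, 19 were fitted above 0, among them Eprs at 0.76 and Rars2 at 0.38, whose windows hold no TGATGNAA. Whether the differences went with the motif was not tested. Eprs had neither motif in its window. A match is a string of letters, and binding was not measured.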

How the data were processed

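Total RNA, extracted with TRIzol per the labels, was measured in 6 mammosphere samples on 2 Affymetrix chips, 12 arrays in all. The deposited intensity values are MAS5 signals on a linear scale, per the submitters' processing notes, and the equal trimmed means (2% off each end) show that the authors scaled each array to a common target. The MAS5 version and the genome build are not given in the sources used here, and detection calls were not used here. Probe sets took gene symbols from the platforms' probe-to-gene tables and the RefSeq table of GRCm38.p6. The members and the gene lists were chosen with earlier results of these data known.

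Arrays of a chip were set to their common trimmed mean, and 5% of it (75.0 units) was added before the log2. The test covered probe sets averaging at least 20% of the trimmed mean (300.1 units on MOE430A), 15939 on MOE430A and 17915 on MOE430B, without control probe sets. limma 3.58.1 in R 4.3.3 (lmFit and eBayes) compared the states on each chip, with Benjamini-Hochberg adjustment over the chip and a threshold of 0.05. Every adjusted p in the text comes from this test, two-sided, and values after ± are SEs unless named SD. The median residual SD was 0.21 on MOE430A and 0.446 on MOE430B (log2), and precision is limited by the number of arrays. A state with all 3 values below background has only a bound, the ratio of mean log2 values with the dim state raised to background. The bound is given only where all 3 values of the other state were above background. Every synthetase gene is named, and of each other list up to 2 passing genes with the largest rises and 2 with the largest falls. Scaling, offset, filter, prior, blocks and left-out samples were varied, and the scripts were tested on simulated data. Correlations of same-numbered samples' deviations from their state's mean were -0.02 to 0.04 on MOE430A and -0.02 to 0.05 on MOE430B, so numbers were not taken as pairs.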

Additional observations from a re-analysis of the deposited data

How the results depend on the processing

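Eprs passed in 16 of 19 alternatives, Gars in 6 of 18 and Pars2 in 17 of 17, and the values as deposited, quantile normalization and offsets of 1% and 20% kept the same 3 genes. Scaling on the hybridisation controls put the median of all tested probe sets at -1.06 on MOE430A and -0.91 on MOE430B, in place of 0.03 and 0.04. It gave 10896 passing probe sets on MOE430A in place of 4550, of which 2.27% were higher, 1548 in place of 328 on MOE430B (2.26% higher), and 0 synthetase genes higher and 22 lower. Signs were then reversed for Aars (-0.88), Cars (-1.03), Eprs (-0.41), Fars2 (-1.01), Gars (-0.80), Iars (-0.90), Iars2 (-0.98), Lars (-0.96), Nars (-1.07), Sars (-0.94), Tars (-1.11), Wars (-0.99) and Yars (-0.93), and, among genes that passed in neither setting, for Rars2 (-0.75), Tars2 (-0.79), Aars2 (-0.75), Mars2 (-0.40) and Wars2 (-0.66). Scaling on the poly-A controls gave 2538 and 168 passing probe sets and 0 synthetase genes higher, with log2 differences close to the main ones, 0.77 for Eprs (adjusted p = 0.056) and 0.39 for Gars (0.365). The cause of these shifts was not tested.

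Without a filter 1 synthetase gene was higher. With the filter at the trimmed mean, which leaves 22 of the genes, 4 were higher and 0 lower, since Pars2 was not tested, and 696 of 7470 probe sets passed on MOE430B. A trend and robust prior gave 838 on MOE430B and 4 synthetase genes higher, adding Aars (adjusted p = 0.0407) and Rars2 (0.0471). With the replicate block 0 probe sets passed on MOE430B in limma (2505 at an unadjusted p under 0.05) and 1 synthetase gene was higher, Gars keeping its log2 difference of 0.37 at adjusted p = 0.0975. The scan session as a block gave 58 and 1, the same as leaving out undifferentiated sample 1. Leaving out 1 sample gave 2760 to 3823 passing probe sets on MOE430A, with 2760 and 2855 for undifferentiated samples 4 and 2, 39 to 146 on MOE430B, and 1 synthetase gene higher each time. Without differentiated samples 1 and 4, 2384 passed on MOE430A, 0 on MOE430B (2204 unadjusted), and 0 synthetase genes were higher and 2 lower. The differentiated state is then 1 sample, assumed to vary like the others. Reading the 18 genes with more than 1 tested probe set from their second brightest, and the others as before, gave 2 lower, Pars2 as before and Farsb at -0.52. Across all alternatives, 0 to 5 genes that passed in neither setting changed sign. The counts and medians of the other lists under these settings were added after seeing the data.

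Low signal limits the mitochondrial genes and those read on MOE430B. On either chip, a missed threshold alone does not show that the states are alike. In simulated data on MOE430A, the test recovered 4.48% of 67 true 1.5-fold changes and 32.8% of 67 true 2-fold changes. It recovered 80.3% of 66 true 4-fold changes there. On MOE430B it recovered 0% of the 2-fold and 10.6% of the 4-fold changes. Far fewer probe sets were changed in the simulated data, which gave 82 passing on MOE430A and 7 on MOE430B, against 4550 and 328 here. The adjustment was therefore stricter there, and these shares do not measure recovery in the real data. The intervals on MOE430A lay inside 2-fold for 23 of 26 synthetase genes and inside 1.5-fold for 13.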
